A study of Mus musculus with 21 samples.

Results

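The S100 genes encode small proteins with a pair of EF-hands, the helix-loop-helix motif that binds calcium, and 8 of them are described here across all treatment groups of one macrophage experiment. They were taken by symbol from a count table of 34573 mouse genes. The members are S100a8, S100a9, S100a1, S100a4, S100a6, S100a10, S100a11 and S100a13, out of 17 S100 genes in that table. Of the 8, 7 had enough counts to be tested among 6812 tested genes, and S100a9 did not.

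The cells were macrophages grown from the bone marrow of 12-week-old C57bl/6 mice, over 6 days in L929 medium, which supplies the growth factor M-CSF. They were left without pretreatment or given succinate or dimethyl malonate (DMM) for 3 h, and then received lipopolysaccharide (LPS) for 4 or 48 h or no LPS. Succinate is the substrate of succinate dehydrogenase in the citric acid cycle, DMM is an ester form of malonate, which inhibits that enzyme, and LPS is the bacterial agent sensed by the receptor TLR4. No label states a dose or says that replicates were separate animals or cultures, so the p-values speak for the spread among these libraries alone, which may be technical. The unstimulated groups were untreated control (3 libraries, numbered 1, 3 and 4), DMM alone (4) and succinate alone (4), each merged over both time sets because their columns name no hours. The stimulated groups at 4 h were LPS alone (2), DMM then LPS (2) and succinate then LPS (1), and those at 48 h were LPS alone (1), DMM then LPS (2) and succinate then LPS (1). A group with 1 library was assumed to vary like the others.

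A second library labelled LPS 48 h, replicate 1, was kept apart from every group value. It held Saa3, an acute-phase gene that LPS induces, at 33.8 CPM, that is counts per 1000000 counts after scaling, and Il1b at 0.890 CPM, where the other 9 stimulated libraries held Saa3 at 52967 CPM or more and Il1b at 531 CPM or more. Total counts ran from 662186 to 1546867 per library, so 1 count was worth 0.562 to 1.58 CPM, and members with few counts have wide intervals. The 9 macrophage markers in the table, such as Csf1r, Emr1 and Lyz2, summed to at least 54195 CPM in each of the 20 libraries used. Markers of dendritic cells, B cells, T cells, mast cells and erythroid cells summed to at most 12.7 CPM in any of them. In bulk RNA, fewer cells of a type and less RNA per cell cannot be told apart.

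S100 proteins mostly act as dimers that change shape on binding calcium and then grip target proteins. Inside the cell their partners include annexins, myosin and other cytoskeletal proteins, while several are also released without a signal peptide and act on receptors such as TLR4 and RAGE. S100A8 and S100A9 pair as calprotectin, an abundant protein of neutrophils and monocytes that binds zinc and manganese and is a known alarmin, and S100a8 is an LPS-inducible gene in mouse macrophages. S100A4 binds non-muscle myosin and is linked to cell motility, S100A6 (calcyclin) binds the protein CACYBP, S100A10 forms a complex with annexin A2, S100A11 binds annexin A1, S100A13 takes part in the release of proteins that lack a signal peptide, and S100A1 is best known from heart muscle. In the mouse annotation used here (GENCODE M21) the 8 genes lie on chromosome 3 in the order S100a1, S100a13, S100a4, S100a6, S100a8, S100a9, S100a11 and S100a10.

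RefSeq (GRCm38.p6) gave a promoter for 7 of the 8 members, all but S100a10, and those of S100a8, S100a9, S100a4 and S100a11 are printed because the values below turn on these genes. S100a8 and S100a9 are neighbours of which one was well counted after LPS and the other all but absent, and S100a4 and S100a11 are the members lower after DMM then LPS. Each line holds the bases before the RefSeq start of transcription, 5′ to 3′ on the gene's strand, without any base that the annotation places in an exon. Capitals mark the motif matches named after the lines.

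S100a8, chr3:90668821-90668977, + strand: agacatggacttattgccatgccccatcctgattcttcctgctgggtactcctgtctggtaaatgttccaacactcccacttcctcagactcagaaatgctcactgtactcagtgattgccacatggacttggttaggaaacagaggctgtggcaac

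S100a9, chr3:90695722-90695971, - strand: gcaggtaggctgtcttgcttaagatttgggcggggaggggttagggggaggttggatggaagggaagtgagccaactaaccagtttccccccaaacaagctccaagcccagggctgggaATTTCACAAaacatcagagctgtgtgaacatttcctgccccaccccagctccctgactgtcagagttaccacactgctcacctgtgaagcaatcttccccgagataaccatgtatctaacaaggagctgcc

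S100a4, chr3:90603520-90603769, + strand: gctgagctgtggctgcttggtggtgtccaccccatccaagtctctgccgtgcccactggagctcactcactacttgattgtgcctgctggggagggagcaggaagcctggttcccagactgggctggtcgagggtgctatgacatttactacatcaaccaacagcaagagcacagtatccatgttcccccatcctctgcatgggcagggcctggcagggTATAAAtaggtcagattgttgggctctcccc

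S100a11, chr3:93520246-93520487, + strand: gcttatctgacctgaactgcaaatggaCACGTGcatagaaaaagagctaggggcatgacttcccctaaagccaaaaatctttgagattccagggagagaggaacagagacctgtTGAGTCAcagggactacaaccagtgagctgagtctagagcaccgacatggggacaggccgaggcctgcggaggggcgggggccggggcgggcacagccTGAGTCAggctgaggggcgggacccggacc

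The 250 bases before each start were searched on both strands for a TATA box (TATAAA), AP-1 (TGANTCA), C/EBP (TTNNGNAAT), STAT (TTCNNNGAA), a hypoxia element (ACGTG) and NF-kB. S100a4 holds TATAAA from 31 to 26 bases before its start, and S100a8 from 30 to 25 bases before its start, within the 93 bases left out above because the annotation places an exon there. The capitals in S100a9 are 1 C/EBP match on the opposite strand. Those in S100a11 are 2 AP-1 matches, each counted on both strands because the pattern searched is its own reverse complement, and 1 hypoxia element in which matches on both strands overlap. Over 32851 RefSeq promoters of the same length, 12.4% held the TATA box, 6.75% AP-1, 10.2% C/EBP, 7.02% STAT, 16.6% the hypoxia element and 7.25% NF-kB. A match describes letters in a window and shows no binding.

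S100a8 was silent at this depth in unstimulated macrophages and present after LPS. It had 0 counts in all 11 unstimulated libraries, whatever the pretreatment. With LPS for 4 h it stood at 41.6 and 66.7 CPM without pretreatment, at 200 and 320.3 CPM after DMM, and at 559.9 CPM in the 1 library with succinate. With LPS for 48 h it stood at 7.72 CPM without pretreatment, at 12.1 and 12.2 CPM after DMM, and at 80.7 CPM in the succinate library. No stimulated library used here overlapped with an unstimulated one. At each time the libraries ranked LPS alone, then DMM, then succinate, but each of these groups held 1 or 2 libraries. At 48 h LPS alone and DMM lay close, at 8 counts against 15 and 13, and their difference was not called.

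**Figure D1:**
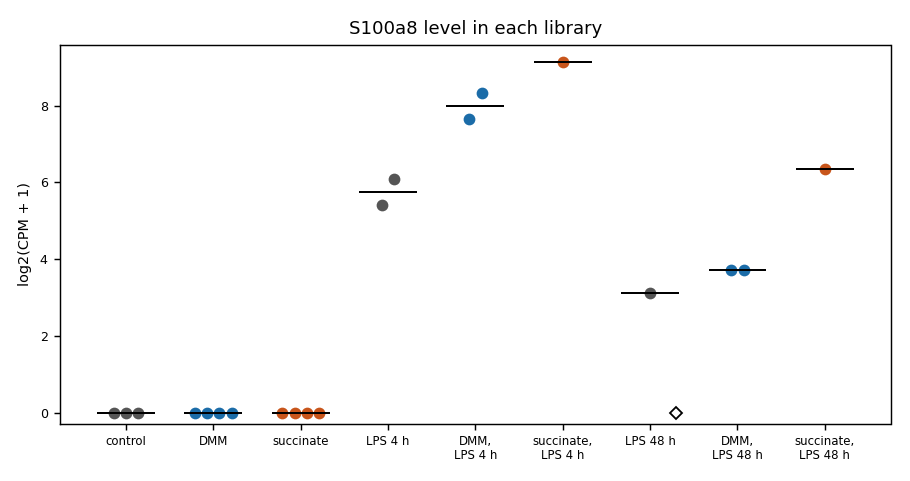
S100a8 in each library, as log2(CPM + 1) on the vertical axis, by group on the horizontal axis. Points are libraries, lines are the means of the plotted values, and the open diamond is the library labelled LPS 48 h that was kept apart. The 11 unstimulated libraries lie at 0, and the succinate library with LPS for 4 h is the highest at 559.9 CPM.

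Since 1 side held no count, a fold is given as a bound, computed against a floor of 3 counts over the unstimulated group with the same pretreatment. The bound concerns the side at 0 alone. It takes the pooled value of the stimulated group as it stands, so counting error and spread on that side are not covered. At 4 h S100a8 was at least 50.9-fold higher with LPS alone, at least 339-fold higher with DMM and LPS, and at least 837-fold higher with succinate and LPS. At 48 h the bounds were 7.27-fold with LPS alone, from 8 counts, 16.8-fold with DMM and 121-fold with succinate. S100a8 passed the low-count filter through stimulated libraries alone, so no p-value is given for it against unstimulated cells. Averaged over the 3 pretreatments it was lower at 48 h than at 4 h of LPS, with a log2 fold change of -3.33 ± 0.28 (standard error) and adjusted p = 1.11e-07 (edgeR's quasi-likelihood test with Benjamini-Hochberg adjustment over all tested genes). The 4 h and 48 h libraries overlapped across pretreatments. They carry different replicate labels, A and B at 4 h and 1 and 2 at 48 h, so time and replicate set cannot be told apart. With a replicate block in the fit the log2 fold change was -3.28 and S100a8 was not called. With the library that was kept apart put back, the log2 fold change from 4 to 48 h was -3.67 (adjusted p = 0.0105).

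S100a9, whose protein is the partner of S100A8 in calprotectin, was all but absent. It had 1 count in control library 1 and 1 count in the succinate library with LPS for 4 h, and 0 in the other 19 libraries. Over all libraries S100a8 had 1343 counts and S100a9 had 2. In the DMM then LPS 4 h libraries S100a8 had 355 and 345 counts and S100a9 had 0 in both. A count of 0 allows up to 3 counts, which is 1.69 and 2.79 CPM in these libraries. S100a9 shared no 50-base stretch with another annotated gene, and neither did S100a8.

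Of the 16 neutrophil markers in the table, Ly6g, Ltf, Ctsg and Retnlg had 0 counts in every library, and Camp, Ngp, Elane, Mpo and Prtn3 had 1 to 6 counts in all. The marker list as a whole still moved with LPS: it summed to 6.12 to 32.2 CPM in unstimulated libraries, 6274 to 6893 CPM with LPS for 4 h, 2227 to 2963 CPM with DMM before it and 14005 CPM with succinate. Most of that was Lcn2, at 6033 to 6652 CPM with LPS for 4 h, and in the succinate library also Mmp9, at 3838 CPM. Mmp8, the neutrophil collagenase, was at 0 to 3.03 CPM in the control and 28.8 to 39.8 CPM with LPS for 4 h. It was at 69.1 to 70.6 CPM with DMM before LPS and 586 CPM with succinate before LPS, which is the order seen for S100a8 with LPS. With DMM alone, where S100a8 had no count, Mmp8 passed the CPM of the low-count filter in 2 libraries, against 0 with control or succinate alone. With LPS for 48 h Mmp8 was at 24.1 CPM alone, 24.4 to 29.2 CPM with DMM and 266 CPM with succinate. The 4 tested markers were Lcn2, Mmp8, Mmp9 and Csf3r. Lcn2, Mmp8 and Mmp9 passed the low-count filter in 0 control libraries and in 2 with LPS for 4 h. No call against the control is therefore given for these genes. Csf3r was called higher with LPS for 4 h than in the control, beside 15.4% of all tested genes. Mmp8 and Mmp9 were called higher with succinate before LPS for 4 h than with LPS alone, beside 0.528% of all tested genes. The succinate side of that comparison is 1 library. Before LPS for 4 h DMM lowered Mmp9, beside 10.5% of all tested genes called lower, and moved none of the other 3 past the threshold. At 48 h the sum was 5670 CPM with LPS alone, 2321 to 6009 CPM with DMM and 5632 CPM with succinate. The 4 monocyte markers summed to 0 to 15.1 CPM in the control and 42.9 to 83.5 CPM with DMM alone, where S100a8 was at 0. They summed to 39.5 to 39.8 CPM with LPS for 4 h, 60.4 to 68.0 CPM with DMM before it, and 48.9 CPM with succinate. The part of either marker list in the S100a8 values was not tested.

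Under LPS for 4 h both pretreatments raised S100a8, and DMM also lowered S100a4 and S100a11. After DMM, S100a8 was 4.78-fold higher than with LPS alone, a log2 fold change of 2.26 ± 0.31 (adjusted p = 5.09e-05). It was the only member called higher of 7 tested, beside 3.54% of all tested genes called higher. S100a4 stood at 401 and 506 CPM with LPS alone and at 148 and 227 CPM after DMM, a log2 fold change of -1.28 ± 0.39, with adjusted p = 0.0278. S100a11 stood at 30.9 and 35.5 CPM with LPS alone and at 5.62 and 13 CPM after DMM, a log2 fold change of -1.92 ± 0.60, with adjusted p = 0.0290. These 2 members of 7 were called lower, beside 10.5% of all tested genes. For both genes the libraries of the 2 groups did not overlap, but neither did they for S100a6, S100a10 and S100a13, which were not called. With 2 libraries on each side this separation does not set the 2 genes apart. The calls were also weak against single libraries. The call on S100a4 was lost without any 1 of the 4 libraries (log2 fold change -1.60 to -0.99, adjusted p = 0.0503 to 0.292), and that on S100a11 without DMM then LPS 4 h replicate 1 (-1.34), LPS 4 h replicate 1 (-2.02) or LPS 4 h replicate 2 (-1.82). The call on S100a8 held in each of the 11 alternatives run, leaving out each library included, with log2 fold changes of 1.89 to 2.64 and an adjusted p of at most 0.0439, the latter in the fit on all 21 libraries.

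The remaining members were not called after DMM then LPS for 4 h. S100a6 was at 369 and 719 CPM with LPS alone and at 238 and 312 CPM after DMM, with a log2 fold change of -0.98 ± 0.43 and adjusted p = 0.128. S100a10 was at 110 and 140 CPM with LPS alone and at 73.6 and 100 CPM after DMM (-0.53 ± 0.34). S100a13 and S100a1 had log2 fold changes of -0.72 ± 0.56 and -0.02 ± 0.42, and S100a1 took 18.5 and 18.6 CPM after DMM, between its LPS values of 13.9 and 23.7 CPM.

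Succinate before LPS for 4 h gave 1 library. There S100a8 was 10.3-fold higher than with LPS alone, a log2 fold change of 3.37 ± 0.37 (adjusted p = 4.07e-06), and it was the only member called of 7, beside 0.528% of tested genes called higher. S100a4 was at 1142 CPM in that library, above both LPS libraries, but the difference of 1.33 ± 0.47 (log2) was not called (adjusted p = 0.270). The other members had log2 fold changes from -0.06 for S100a13 to 0.71 for S100a10. With the library kept apart put back into its group, the call on S100a8 was lost at the same fold (log2 3.38, adjusted p = 0.162).

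**Figure D2:**
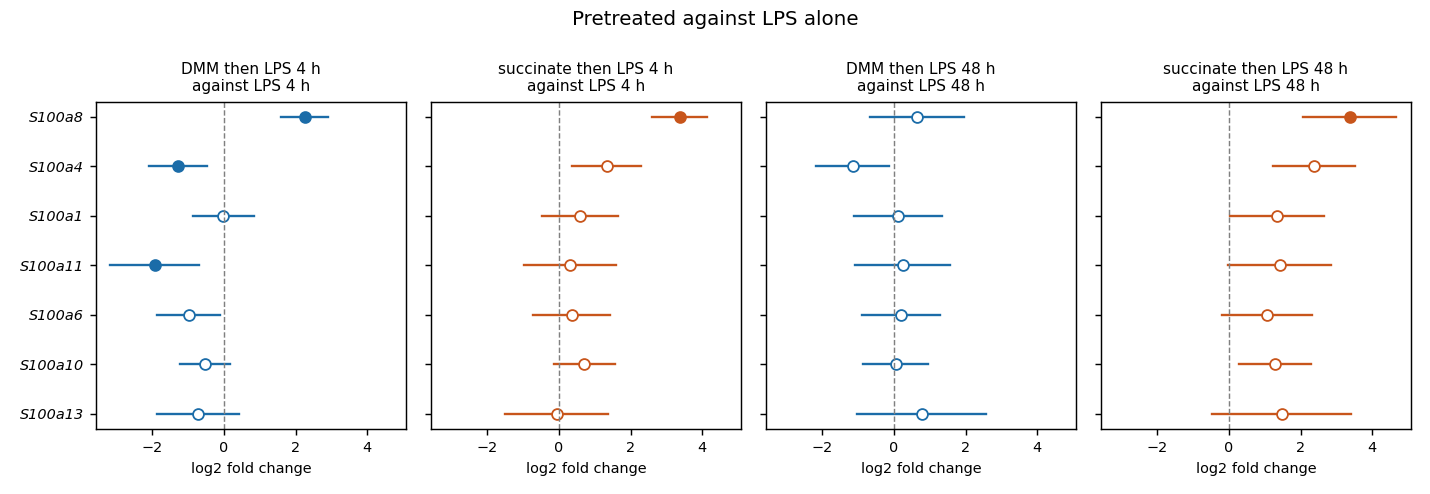
Log2 fold change of each tested member (vertical axis) in pretreated cells against cells with LPS alone, at 4 h and 48 h. Circles are estimates, filled where the adjusted p was under 0.05, and lines are 95% intervals. S100a8 lies at 2.26 and 3.37 at 4 h and at 0.65 and 3.37 at 48 h, while S100a4 lies below 0 with DMM and above 0 with succinate at both times.

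Set directly against each other under LPS for 4 h, DMM gave lower values than succinate for 3 of 7 members, beside 6.5% of tested genes called lower. S100a4 was 6.10-fold lower, with a log2 fold change of -2.61 ± 0.48 and adjusted p = 0.000339. S100a11, at 41.2 CPM in the succinate library, was lower by a log2 difference of -2.23 ± 0.69 (adjusted p = 0.0490). S100a8 was lower by -1.11 ± 0.35 (adjusted p = 0.0498). Both of the latter lie at the threshold: without DMM then LPS 4 h replicate 1 the differences were -1.65 and -0.80 and neither was called, and DESeq2 did not call S100a8 (adjusted p = 0.139). S100a10 and S100a6 had differences of -1.24 ± 0.41 (adjusted p = 0.0533) and -1.35 ± 0.53 (adjusted p = 0.107).

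At 48 h of LPS none of the 7 tested members was called after DMM against LPS alone, beside 0.807% of all tested genes. S100a8 differed by 0.65 ± 0.63 (log2), with a 95% interval of -0.65 to 1.95, and S100a4, at 122 CPM with LPS alone and 34.0 and 76.1 CPM after DMM, by -1.15 ± 0.50 (adjusted p = 0.291). At an unadjusted p under 0.05, 1 member passed, S100a4, and DESeq2 called 0 members. The single LPS library limits this comparison. With the library kept apart put back, at 722 CPM of S100a4, the S100a4 difference was -2.91 (adjusted p = 0.0201). Without DMM then LPS 48 h replicate 2 it was -1.80 (adjusted p = 0.0291).

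Succinate before 48 h of LPS gave S100a8 at 10.3-fold the level with LPS alone, a log2 fold change of 3.37 ± 0.63 (adjusted p = 0.00486). It was the only member called of 7, beside 0.338% of tested genes called higher. S100a4 was at 630 CPM with succinate against 122 CPM with LPS alone, a log2 difference of 2.37 ± 0.56 that missed the threshold (adjusted p = 0.0542) but was called by DESeq2 (adjusted p = 0.00257). S100a10 and S100a1 had differences of 1.29 ± 0.50 and 1.34 ± 0.64 and were not called. Each side holds 1 library. With the library kept apart put back, the S100a8 difference was 4.39 (adjusted p = 0.159) and the S100a4 difference 0.61.

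Between the pretreatments at 48 h, DMM gave lower S100a4 and S100a8 than succinate, which were 2 of 7 members beside 3.1% of all tested genes called lower. S100a4 was 11.5-fold lower, with a log2 fold change of -3.52 ± 0.49 and adjusted p = 1.48e-05, and S100a8 was 6.57-fold lower, with a log2 fold change of -2.72 ± 0.45 and adjusted p = 0.000449. S100a10, at 30.8 and 93.9 CPM after DMM and 147 CPM after succinate, had a difference of -1.24 ± 0.42 (adjusted p = 0.0873). Without DMM then LPS 48 h replicate 2, the highest DMM library for S100a4, S100a6, S100a10, S100a11 and S100a13, 5 members were called, against 2 with all libraries, while calls over all tested genes rose from 263 to 611. With the library kept apart put back, S100a8 kept its difference (-2.71) but not its call (adjusted p = 0.143).

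Whether the pretreatment effects themselves changed from 4 to 48 h was tested with 2 comparisons added after the data were seen. For DMM the S100a8 effect differed by -1.61 ± 0.70 (48 h minus 4 h, log2, adjusted p = 0.918), and S100a11 differed by 2.17 ± 0.87 (adjusted p = 0.836). For succinate the S100a8 effects differed by 0.00 ± 0.73 and the S100a4 effects by 1.04 ± 0.73. In both comparisons 0 of 7 members were called, beside 0% of tested genes. Over all tested genes, 357 passed an unadjusted p under 0.05 for DMM and 236 for succinate, and DESeq2 called 1 gene and 0 genes.

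S100a4, the myosin-binding member, fell with LPS. It stood at 1354, 1684 and 2141 CPM in the control, between 693 and 1418 CPM with DMM alone and between 1032 and 1435 CPM with succinate alone. With LPS for 4 h it was at 401 and 506 CPM, 3.81-fold lower, with a log2 fold change of -1.93 ± 0.35 and adjusted p = 0.000182. With LPS for 48 h it was at 122 CPM, 14.2-fold lower, with a log2 fold change of -3.83 ± 0.46 and adjusted p = 5.97e-06. The succinate libraries with LPS, at 1142 and 630 CPM, were the highest of the stimulated libraries used here, and the first lay within the range of unstimulated succinate and DMM cells.

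S100a1 was also lower with LPS than in the control at both times. It stood at 37.5 to 52.0 CPM in the control, 33.3 to 49.8 CPM with DMM alone and 25.9 to 64.4 CPM with succinate alone. LPS took it to 13.9 and 23.7 CPM at 4 h, a log2 fold change of -1.33 ± 0.37 with adjusted p = 0.00601, and to 11.6 CPM at 48 h, a log2 fold change of -2.02 ± 0.54 with adjusted p = 0.00404. The call at 4 h was lost without LPS 4 h replicate 1 (adjusted p = 0.136), and from 4 to 48 h of LPS S100a1 was not called (-0.39 ± 0.31, adjusted p = 0.704). With the library kept apart put back, which held S100a1 at 47.2 CPM, the 48 h difference was -0.64 and not called, and that of S100a4 was -2.02 (adjusted p = 0.0219). S100a1 and S100a13 overlap by 98 bases on opposite strands in RefSeq, and whether counting used strand is not given in the sources used here, so some reads of these 2 genes cannot be told apart. S100a4 shares 47.4% of its 50-base stretches with the overlapping gene model Gm42674 of GENCODE M21. The annotation behind the counts is not stated, so how far this affects the S100a4 counts is not known.

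**Figure D3:**
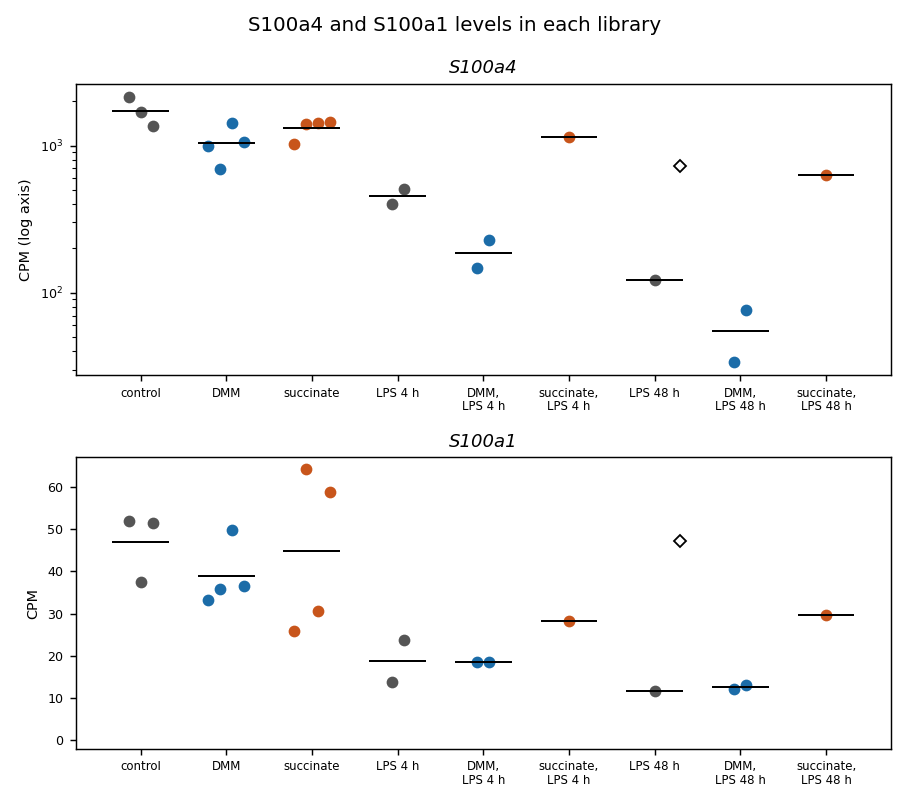
S100a4 (log axis) and S100a1 (linear axis) in CPM in each library, by group. Points are libraries, lines are group means, and the open diamond is the library labelled LPS 48 h that was kept apart, which lies above the other LPS 48 h library for both genes. S100a4 falls from 1354 to 2141 CPM in the control to 122 CPM with LPS for 48 h and stays at 1142 and 630 CPM in the succinate libraries.

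S100a11 was a low-count member that was higher with LPS alone for 4 h than in the control. After DMM it went the other way, from 18.3 to 21.6 CPM without LPS to 5.62 and 13 CPM with LPS for 4 h, a step not tested by itself. It stood at 3.06, 5.86 and 18.2 CPM in the control and at 30.9 and 35.5 CPM with LPS for 4 h, a rise of 1.84 ± 0.57 (log2) with adjusted p = 0.0136. That call was lost without control replicate 3 (1.63, adjusted p = 0.0548) or LPS 4 h replicate 2 (1.74, adjusted p = 0.0864). At 48 h it was at 25.1 CPM with LPS alone, 1.44 ± 0.69 (log2) above the control and not called (adjusted p = 0.151), but without control replicate 4, the highest control library, the difference was 2.56 (adjusted p = 0.00883). S100a11 shares 41.1% of its 50-base stretches with the gene model Gm12854 and 23.4% with Gm7665, so reads may be split between them and its values are uncertain.

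S100a8 is left out of the counts against unstimulated cells that follow. Against the control with LPS for 4 h, 1 of the other 6 tested members (S100a11) was called higher and 2 (S100a4 and S100a1) lower, beside 15.4% and 12.5% of all tested genes. With LPS for 48 h, 0 of 6 were called higher and 2 (S100a4 and S100a1) lower, beside 12.5% and 8.29%. The median log2 fold change of the 6 was 0.27 at 4 h and -0.98 at 48 h, and of all tested genes -0.07 and -0.09. S100a6 and S100a10 were not called against the control at either time. S100a6 was at 323 to 380 CPM in the control, 369 and 719 CPM with LPS for 4 h and 260 CPM at 48 h, and S100a10 at 102 to 123, 110 and 140, and 59.8 CPM.

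Averaged over the 3 pretreatments, LPS for 4 h lowered S100a4 (-1.54 ± 0.22, adjusted p = 3.60e-06) and S100a1 (-1.02 ± 0.22, adjusted p = 0.000339). That is 0 of 6 members higher and 2 lower, beside 20.6% and 24.5% of tested genes. LPS for 48 h raised S100a11 (1.5 ± 0.33, adjusted p = 0.000733) and lowered S100a4 (-3.05 ± 0.24, adjusted p = 4.97e-10) and S100a1 (-1.41 ± 0.26, adjusted p = 3.50e-05), which is 1 higher and 2 lower, beside 20.6% and 23.4%. At 4 h S100a11 (0.81 ± 0.33, adjusted p = 0.0523), S100a10 (0.45 ± 0.19, adjusted p = 0.0527) and S100a6 (0.52 ± 0.24, adjusted p = 0.0708) lay just outside the threshold. Each of them came inside it without the low-count filter, with only the groups compared, and without certain single libraries. The replicate block and the split of unstimulated libraries by set also called S100a11 and S100a6. Other alternatives took each further out. Over the 22 alternatives run, their log2 fold changes were 0.60 to 1.33, 0.37 to 0.52 and 0.34 to 0.66. From 4 to 48 h, S100a8 and S100a4 (-1.51 ± 0.28, adjusted p = 0.00328) were lower, 2 of 7 members, beside 0.543% of tested genes called lower. Time goes with replicate set here too, and with a replicate block in the fit neither was called (S100a4 -1.20, adjusted p = 0.0651). With the library kept apart put back, the S100a4 difference between the times was -0.92 (adjusted p = 0.380).

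**Figure D4:**
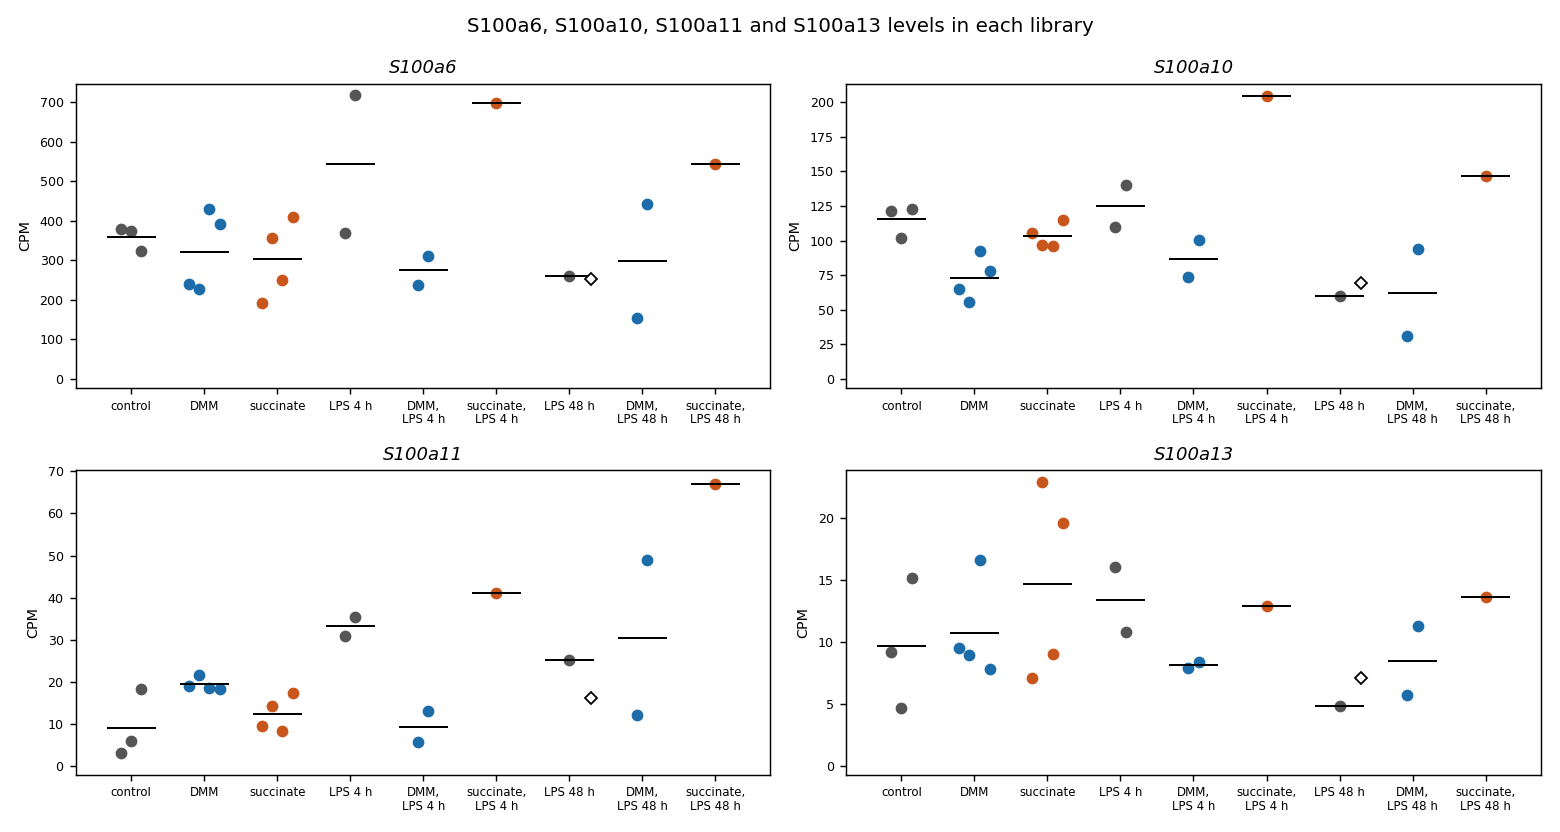
S100a6, S100a10, S100a11 and S100a13 in CPM in each library, by group. Points are libraries, lines are group means, and the open diamond is the library labelled LPS 48 h that was kept apart. S100a11 is at 30.9 and 35.5 CPM with LPS for 4 h and at 5.62 and 13 CPM with DMM before it, while S100a13 stays between 4.69 and 22.9 CPM.

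Without LPS the pretreatments moved no member past the threshold. DMM alone left 0 of 7 called, beside 0.558% of tested genes, succinate alone 0 of 7, beside 0% of tested genes, and DMM against succinate 0 of 7, beside 0.22%. At an unadjusted p under 0.05, 3 members (S100a4, S100a10 and S100a11) passed with DMM alone and 0 in the other comparisons, and DESeq2 called 0 members in each. For succinate alone 363 genes passed an unadjusted p under 0.05 and DESeq2 called 2 genes. S100a10 came lowest with DMM alone, at 55.9 to 92.7 CPM against 102 to 123 CPM in the control and 95.8 to 115 CPM with succinate, with differences of -0.66 ± 0.27 (adjusted p = 0.291) and -0.50 ± 0.25 (adjusted p = 0.593) on the log2 scale. S100a11 was at 18.3 to 21.6 CPM in all 4 DMM libraries, with a difference of 1.08 ± 0.53 from the control (adjusted p = 0.408). The highest control library, at 18.2 CPM, lay just below them. S100a4 differed by -0.73 ± 0.29 with DMM (adjusted p = 0.292) and by -0.38 ± 0.29 with succinate (adjusted p = 0.952). For S100a8 both sides were at 0 and no fold is given.

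S100a11 thus had a higher mean than the control with DMM alone, which was not called, and was below LPS alone with DMM and LPS. The difference between these responses was tested. The interaction of DMM with LPS at 4 h was -3.00 ± 0.79 (log2, adjusted p = 0.0229), and S100a11 was 1 of 6 members called lower in it, beside 4.49% of all tested genes. Without DMM then LPS 4 h replicate 1 the interaction was -2.41 (adjusted p = 0.185), without LPS 4 h replicate 1 it was -3.09 (adjusted p = 0.0605), without LPS 4 h replicate 2 it was -2.89 (adjusted p = 0.0917) and without control replicate 3 it was -2.79 (adjusted p = 0.0607). The S100a4 interaction was -0.55 ± 0.49 (adjusted p = 0.567). S100a8 is not among the 6, since it had no count without LPS and its fitted interaction cannot be interpreted.

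These movements changed which S100 genes the counts came from. S100a4 made up 66.1% to 79.0% of a library's S100 counts without LPS, 33.7% and 40.7% with LPS for 4 h, and 21.2% and 22.5% with DMM before it. S100a8 went from 0% to 4.23% and 4.44% with LPS for 4 h, 28.5% and 31.8% with DMM before it, and 20.8% with succinate. At 48 h S100a6 took 52.6% with LPS alone and 56.7% and 62.6% with DMM before it, and S100a4 took 41.6% with succinate. These are shares of counts, in which a longer transcript gives more counts at the same level. All S100 genes together made up 0.129% to 0.311% of a library's counts without LPS and 0.0336% to 0.201% with it.

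**Figure D5:**
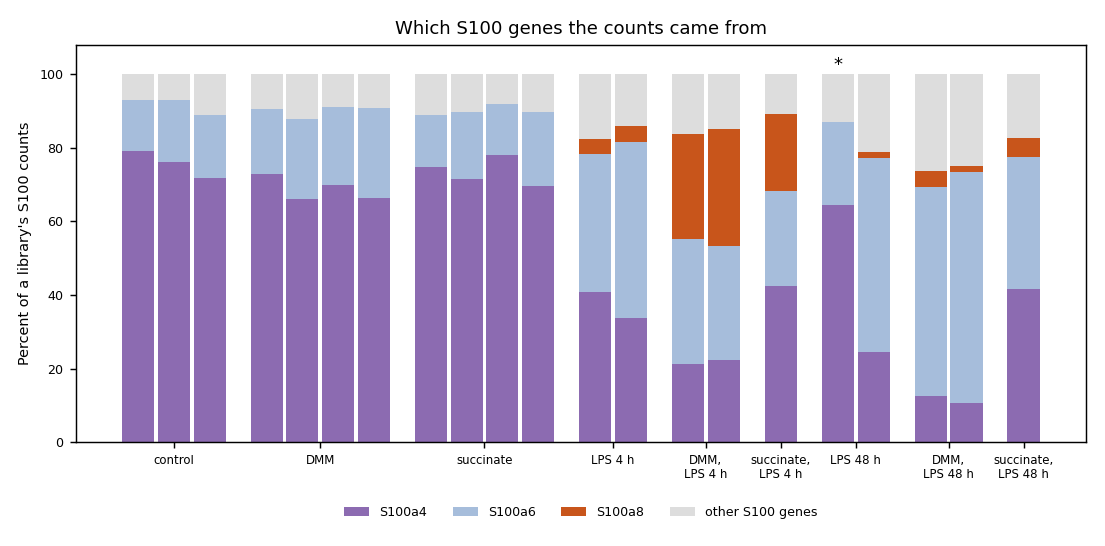
Share of each library's S100 counts (vertical axis, percent) that came from S100a4, S100a6, S100a8 and the other S100 genes. Each bar is a library, grouped by treatment, and the star marks the library labelled LPS 48 h that was kept apart, where S100a4 makes up 64.5%. S100a8 takes 28.5% and 31.8% in the DMM then LPS 4 h libraries and 20.8% in the succinate one.

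For levels between genes, counts were set per length, as mean CPM per kilobase of the median annotated coding transcript. In the control the order was S100a4 (3467), S100a6 (600.0), S100a10 (199), S100a1 (75.0), S100a11 (17.7) and S100a13 (13.5), with S100a8 at 0. S100a11 and S100a13 overlapped between control libraries before scaling, at 3.06 to 18.2 and 4.69 to 15.1 CPM, and their order was not separable. In the succinate library with LPS for 4 h S100a8 reached 1152 CPM per kilobase, next to S100a6 at 1170 and below S100a4 at 2293. After DMM then LPS for 4 h S100a8, at 535 CPM per kilobase on average, was the first in the order, ahead of S100a6 (461) and S100a4 (376). The ranges over the 2 libraries overlapped, at 411 to 659, 399 to 522 and 298 to 455. Within each library the order was the same.

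Across the 20 libraries used, members differed in which of 4248 genes with a mean of at least 10 CPM followed them most closely in log2 CPM. The points share library depth and the LPS contrast, so Pearson's r is given as a description only. For S100a8 the nearest genes were Arg1, the arginase that uses up arginine (r = 0.964), Prdx6, a peroxiredoxin (0.959), and Ptgs2, the inducible cyclooxygenase (0.949). For S100a4 they were Gusb, a lysosomal hydrolase (0.928), Arhgef6 (0.928) and Atp6v0a1, a subunit of the vacuolar proton pump (0.926), and for S100a1 Fli1 (0.918), Map1lc3b (0.898) and Man2b1 (0.896). S100a6 had Chmp5 (0.840), Cyb5 (0.838) and Cfl1 (0.830), and S100a10 had Cyb5 (0.873), Mt1 (0.820) and Anxa5 (0.809). S100a11 had Tmem123 (0.867), Tuba1a (0.864) and Blvrb (0.855), and S100a13 had lower values, from 0.718 with Scamp5 to 0.679 with Taf10 and 0.651 with Vcp-rs. Among members, S100a4 and S100a1 went together (0.872), as did S100a6 and S100a10 (0.798), and S100a8 ran against S100a1 (-0.57) and S100a4 (-0.48).

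The receptors and intracellular partners of S100 proteins changed with LPS in both directions. Of 20 tested partners, 8 were called higher with LPS for 4 h and 3 lower, beside 15.4% and 12.5% of all tested genes, with a median log2 fold change of 0.62 against -0.07 over all tested genes. Cd36, a scavenger receptor, rose by 2.39 ± 0.37 (adjusted p = 5.96e-06) and Bsg, the receptor basigin, by 2.04 ± 0.33 (adjusted p = 1.19e-05), while Anxa1, the annexin that S100A11 binds, fell by 2.28 ± 0.33 (adjusted p = 6.48e-06). Plaur, the urokinase receptor, is counted among the 8, but it had too few control counts for a fold and its call is not read as a result. Of 8 tested annexins, 1 was higher (Anxa2, by 1.58 ± 0.35) and 3 lower, Anxa1, Anxa3 (by 1.55 ± 0.37) and Anxa4 (by 0.88 ± 0.28). Anxa1, Anxa2, Anxa5, Anxa6 and Anxa11 stand in both the partner and the annexin list, so the counts of these lists overlap, here and below. Of 14 tested calmodulin-type EF-hand genes, 6 were higher and 1 lower, and for these and the annexins the shares over all tested genes are the same 15.4% and 12.5%. Efhd2 rose by 1.31 ± 0.30, while Calm2 fell by 1.08 ± 0.33.

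After DMM then LPS for 4 h against LPS alone, 0 of the 20 partners were called higher and 4 lower, 0 of 8 annexins higher and 3 lower, and 0 of 14 EF-hand genes higher and 6 lower, beside the 10.5% of all tested genes called lower. Cd36 fell by 2.01 ± 0.40 (adjusted p = 0.00120), Anxa2, the partner of S100A10, by 1.17 ± 0.38 (adjusted p = 0.0379), and Myl12b by 1.92 ± 0.32. The medians of the 3 lists were -0.46, -0.71 and -0.88, against 0.04 over all tested genes. After succinate then LPS for 4 h against LPS alone no gene of the 3 lists was called, beside 1.03% of all tested genes called in either direction, with medians of -0.06, -0.05 and -0.08. Among the other S100 genes, S100b was the only one to pass the low-count filter, through 1 library of DMM then LPS 4 h and 1 of DMM then LPS 48 h. It had 2 counts and 1 count with LPS for 4 h and 15 and 10 counts with DMM before it, and no test is given because those groups let it in. S100a3, S100a5, S100a14, S100a2, S100g and S100z had 0 counts in every library, S100a7a had 2 in all and S100a16 had 1.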

How the data were processed

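Bulk RNA of 21 mouse macrophage libraries was measured with a full-length cDNA method of the SmartSeq2 type, without molecular identifiers named in the labels, so floors cover counting error only. The values are raw read counts for each gene symbol, as the authors deposited them, with TopHat2, Bowtie, HTSeq and edgeR named as tools per the submitters' processing notes. Their versions, the genome build, the strand setting and the annotation are not stated there. Columns were assigned to groups by treatment name, and the hours of the LPS-alone columns at 4 h from the naming of their set.

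Genes were kept when at least 2 libraries passed the CPM of 10 counts in the median library and the total was at least 15, which left 6812 of 34573. CPM is the count per total of kept genes times the factor from the trimmed mean of M values. edgeR 4.0.16 in R 4.3.3 fitted 9 group means to 20 libraries by quasi-likelihood with robust estimation (11 residual degrees of freedom, common biological coefficient of variation 0.230), with Benjamini-Hochberg adjustment over all kept genes and a threshold of 0.05. A value after ± is the standard error of the log2 fold change before it. The procedure was tested on simulated data. The alternatives were DESeq2 1.42.0, other size factors, no filter, all 21 libraries, unstimulated libraries split by set, a replicate block, only the compared groups, and each library left out.

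The members and lists were chosen with earlier results of these data known, and the 48 h minus 4 h differences were added after the data were seen. Named genes were all 8 members, the 3 most correlated genes of each, and up to 4 called genes per list (S100 partners, annexins, calmodulin-type EF-hand genes, other S100 genes). Marker lists covered macrophages and 9 other cell types. Fibroblast markers summed to 33.4 to 39.3 CPM with DMM then LPS 4 h and 6.45 to 17.1 CPM with LPS 4 h, and osteoclast markers to 32.6 to 39.9 and 12.8 to 18.3 CPM. RefSeq and GENCODE M21 served for promoters, lengths, overlaps and gene order. Single values of some genes in the marker and EF-hand lists are not reported here.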

Additional observations from a re-analysis of the deposited data

Results flagged for a closer look

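With succinate alone, S100a4 was at 1032 CPM in library 1 and between 1401 and 1435 CPM in the other 3, so that library lay apart from its group. Of 12 sets of 4 values tested in this way, 6 members in each of the 2 groups with 4 libraries, 1 stood out, and chance flags about 1 in 20. Without it the S100a4 difference between succinate and control remained uncalled.

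The S100a11 response to DMM at 4 h differed between unstimulated and LPS-treated cells, with an interaction of -3.00 on the log2 scale. The DMM libraries held 12 to 29 counts without LPS and 10 and 14 with it, against 3, 5 and 18 in the control and 29 and 33 with LPS alone, so few counts stand behind the difference.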

How the results depend on the processing

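Where the number of called members moved with the processing, the cause was not tested. Counts here are of 7 tested members, S100a8 included. With all 21 libraries, the members called were 1 for LPS 48 h, 1 for 48 h against 4 h, 1 for DMM then LPS 4 h, 0 for succinate then LPS 4 h, 1 for DMM against succinate with LPS 4 h, 1 for DMM then LPS 48 h, 0 for succinate then LPS 48 h, 1 for DMM against succinate with LPS 48 h and 0 for the interaction. Calls over all tested genes also fell in that fit, among others from 1414 to 502 for LPS 48 h, 84 to 25 for 48 h against 4 h, 956 to 456 for DMM then LPS 4 h and 370 to 97 for the interaction, but rose from 55 to 62 for DMM then LPS 48 h. That fit turned 4 values: S100a1 to -1.20 and S100a10 to -0.052 for DMM then LPS 48 h, and, in the succinate effect at 48 h minus 4 h, S100a4 to -0.74 and S100a8 to 1.01. Without the low-count filter the counts were 6 for LPS 4 h averaged, 5 for DMM against succinate with LPS 4 h and 2 for succinate then LPS 48 h, and S100a10 for DMM then LPS 48 h was -0.017. Splitting unstimulated libraries by set gave 5 and 2 for LPS 4 h averaged and succinate then LPS 48 h, and DESeq2 gave 2 for the latter. Fitting only the groups compared gave 6, 3 and 5 for LPS 4 h averaged, succinate then LPS 4 h and DMM against succinate with LPS 4 h, 1 for the succinate difference over time, and 0.12 for S100a1 in DMM then LPS 4 h.

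For the block, and for the split by set, unstimulated columns 1, 2, 3 and 4 were read as replicates A, 1, B and 2 of the titles, which is an inference. Not every pair of libraries in a block deviated together: of 29 correlations of their deviations from group means, 12 were over 0.1 (range -0.21 to 0.29), with 5 of 6 in the block of replicate 2 and 1 of 10 in that of replicate B. With the replicate block, the counts were 5 for LPS 4 h averaged, 0 for 48 h against 4 h (S100a4 -1.20, adjusted p = 0.0651, and S100a8 -3.28, adjusted p = 1), 3 for succinate then LPS 48 h and 4 for DMM against succinate with LPS 48 h, S100a1 for DMM then LPS 4 h was 0.0047 and the S100a8 succinate difference over time was 0.30. The 4 h and 48 h libraries share no block and are linked through unstimulated libraries alone, where S100a8 had no count.

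Leaving out each library gave 3 to 6 called members for LPS 4 h averaged, 1 to 2 for DMM then LPS 4 h, 1 to 3 for DMM against succinate with LPS 4 h, 0 to 1 for DMM then LPS 48 h, 2 to 5 for DMM against succinate with LPS 48 h and 0 to 1 for the interaction. It took S100a1 from -0.35 to 0.42 for DMM then LPS 4 h, S100a13 from -0.31 to 0.26 and S100a6 from -0.036 to 0.93 for succinate then LPS 4 h, S100a10 from -0.92 to 0.62, S100a11 from -1.01 to 0.93 and S100a6 from -0.72 to 0.74 for DMM then LPS 48 h, and the S100a8 succinate difference over time from -0.37 to 0.31. Beside these, 406 of 460 values of single members kept direction and side of the threshold when no library was left out.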
